A study of Mus musculus with 8 samples.

Results

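The genes described here are Oxct1, Bdh1, Bdh2 and Acat1, which encode enzymes that handle ketone bodies. They were found by gene symbol, and all 4 are among the 21517 genes listed for morulae or blastocysts. They were selected on the level of Oxct1, which was higher in blastocysts with knockdown of Smarca5 than in NC blastocysts in an earlier look at the same libraries. The blastocyst values of the 4 genes are therefore a description with no test, and the morula libraries, which that choice did not use, carry the tests.

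Ketone bodies, acetoacetate and beta-hydroxybutyrate, are made mainly in liver mitochondria from the acetyl-CoA of fatty acids and are burned by other tissues. BDH1 interconverts beta-hydroxybutyrate and acetoacetate in mitochondria. OXCT1 then moves CoA from succinyl-CoA to acetoacetate, the step that commits a ketone body to use as fuel, and ACAT1 splits the product into acetyl-CoA for the citric acid cycle. BDH2 is a cytosolic dehydrogenase of the same broad enzyme class, known also for work on an iron-binding molecule of mammalian cells.

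The RNA came from pools of 20 mouse embryos and was sequenced after selection of polyadenylated transcripts. Pools either had a knockdown (KD) of Smarca5, also called Snf2h, a nucleosome-sliding ATPase of the ISWI family, or were labelled NC. KD morulae, NC morulae, KD blastocysts and NC blastocysts held 2 libraries each, 8 in all. The series names embryonic days 3.75 and 4.25 without tying them to the stages, and the method of knockdown, the meaning of NC, the mouse strain and the litters are not given in the sources used here. Values are normalized abundances, scaled by the authors within the table of each stage, so levels in morulae and blastocysts stand on separate scales. No source says that the 2 pools of a group came from separate litters, so a p-value here rests on differences between pools that may be technical.

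The knockdown was visible in every KD library. Smarca5 was 501 and 470 in KD morulae, against 9678 and 9760 in NC morulae (limma adjusted p = 1.88e-04), and 906 and 855 in KD blastocysts, against 7000 and 8283 in NC blastocysts (limma adjusted p = 5.93e-04). Morula libraries held an estimated 16177238 to 18568761 reads, and blastocyst libraries 13958294 to 23304921. Pou5f1, an embryonic pluripotency factor, was listed at 24973 to 27047 in morulae and 19699 to 21630 in blastocysts, and the trophectoderm factor Cdx2 was listed at 2988 to 5053 in morulae and 9653 to 11721 in blastocysts.

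Oxct1 lies on the plus strand of mm10 chromosome 15 (ENSMUSG00000022186, 4026383 to 4155344), Bdh1 on the plus strand of chromosome 16 (ENSMUSG00000046598, 31422280 to 31458901), Bdh2 on the plus strand of chromosome 3 (ENSMUSG00000028167, 135281221 to 135304426) and Acat1 on the minus strand of chromosome 9 (ENSMUSG00000032047, 53580522 to 53610382). All 4 are protein-coding, and no pair of them shares a chromosome. The windows of 300 bases around the RefSeq starts (250 before, 50 after) are shown for Oxct1, the member that differed most among the well-expressed ones, beside Bdh1, whose KD and NC libraries overlapped, and Bdh2, which was scarce. They are on the plus strand of GRCm38.p6, 5′ to 3′, with each CG pair, the target of DNA methylation, in capitals.
Oxct1 (chr15:4026178-4026477): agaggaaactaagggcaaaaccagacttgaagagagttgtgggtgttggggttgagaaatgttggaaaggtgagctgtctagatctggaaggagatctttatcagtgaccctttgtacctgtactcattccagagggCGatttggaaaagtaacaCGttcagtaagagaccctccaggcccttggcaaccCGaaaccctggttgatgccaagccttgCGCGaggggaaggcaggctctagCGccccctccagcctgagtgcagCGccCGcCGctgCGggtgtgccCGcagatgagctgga
Bdh1 (chr16:31422047-31422346): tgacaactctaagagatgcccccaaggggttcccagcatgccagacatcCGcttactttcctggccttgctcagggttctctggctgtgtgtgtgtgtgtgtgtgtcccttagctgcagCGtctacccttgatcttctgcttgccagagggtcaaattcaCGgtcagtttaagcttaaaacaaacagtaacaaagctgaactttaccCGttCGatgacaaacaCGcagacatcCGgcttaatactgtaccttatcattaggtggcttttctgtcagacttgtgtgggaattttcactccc
Bdh2 (chr3:135280971-135281270): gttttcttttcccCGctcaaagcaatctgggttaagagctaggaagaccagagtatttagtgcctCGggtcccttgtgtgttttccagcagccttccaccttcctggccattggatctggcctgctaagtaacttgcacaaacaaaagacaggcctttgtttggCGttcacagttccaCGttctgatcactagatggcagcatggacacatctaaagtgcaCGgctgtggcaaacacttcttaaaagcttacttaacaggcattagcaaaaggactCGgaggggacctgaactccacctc

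The Oxct1 window held 11 CG pairs, and 41.4% of 32851 mouse windows of this length held at least as many. The Bdh1 window shown held 7, the median of all windows, and a further Bdh1 start at chr16:31428503-31428802 held 17, a number reached by 31.4% of windows. The Bdh2 window held 6, reached by 56.4% of windows. None of these windows stands at an extreme of CG content, and the counts are a description of the letters alone. Acat1 is named only.

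Among the enzymes of ketone body use, Oxct1 was higher in every KD library than in any NC library at both stages, while Bdh1 and Acat1, the steps before and after it, had overlapping KD and NC libraries at both stages. The mean of Oxct1 in KD was 2.58 times that in NC in morulae and 2.69 times that in NC in blastocysts. In morulae the difference did not pass the test over all genes. Bdh2 was at the limit of detection in morulae and low in blastocysts, where its KD libraries were higher.

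Bdh1, the dehydrogenase at the entry of the pathway, was 727 and 983 in KD morulae, against 914 and 866 in NC morulae. The NC libraries fell between the KD libraries. The log2 difference on the log2(value + 1) scale was -0.07 (SE 0.19, 95% interval -0.54 to 0.39, limma adjusted p = 0.929), and its sign turned without KD replicate 1, where it was 0.14. In blastocysts Bdh1 was 1063 and 659 in KD, against 1095 and 799 in NC, and the libraries of the groups alternated in order. The log2 difference there was -0.16, and it ranged from -0.50 without KD replicate 1 to 0.18 without KD replicate 2, so its sign rests on single libraries.

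Oxct1, which encodes the CoA transferase, was 1328 and 1052 in KD morulae, against 625 and 299 in NC morulae. Both KD libraries were above both NC libraries, and the NC libraries differed from each other more than the KD libraries did on the log scale. The means were 1190 ± 196 in KD and 462 ± 231 in NC (SD, n = 2 each), a log2 difference of 1.45 (SE 0.35, 95% interval 0.61 to 2.29). The limma p was 0.00501 before adjustment and 0.362 after Benjamini-Hochberg adjustment over 13404 tested genes. Of those genes 0.00746%, which is Smarca5 alone, passed at 0.05, and 10.4% had an unadjusted p under 0.05. Both KD libraries were above both NC libraries with at least a 2-fold ratio of means for 552 genes, 4.12% of those tested, and Oxct1 was one of them. Of the 3 tested members 1, Oxct1, had separate KD and NC libraries, against 41.9% of all genes in either direction, and 2 had a positive log2 difference, against 49.2% of all genes. Without NC replicate 2 the log2 difference was 0.92, and without NC replicate 1 it was 1.98.

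In blastocysts Oxct1 was 3091 and 2755 in KD, against 1144 and 1026 in NC. The libraries of each group lay close together and the groups were far apart. The means were 2923 ± 238 in KD and 1085 ± 83.8 in NC (SD, n = 2 each), a log2 difference of 1.43. This is the difference through which the genes were chosen, so no test is attached to it. Among 13651 tested genes, 4.73% had both KD libraries above both NC libraries with at least a 2-fold ratio of means, 49.5% had separate groups in either direction and 50.3% had a positive log2 difference. At 0.05 after adjustment 0.0366% of genes were higher and 0.0513% lower. The log2 differences at the stages, 1.45 in morulae and 1.43 in blastocysts, were close, and the difference between them was not tested.

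Acat1, the thiolase that yields acetyl-CoA and also acts in isoleucine breakdown, was 915 and 1042 in KD morulae, against 934 and 843 in NC morulae. KD replicate 1 fell between the NC libraries. The log2 difference was 0.14 (SE 0.16, 95% interval -0.25 to 0.53, limma adjusted p = 0.820), so a rise of the size seen for Oxct1 lay outside its interval. In blastocysts Acat1 was 1116 and 1069 in KD, against 1086 and 921 in NC, a log2 difference of 0.13 with overlapping groups.

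Bdh2 was listed at 0 and 0.926 in KD morulae, against 1.09 and 0 in NC morulae. The estimated step for 1 read was 0.931 to 1.08 in these libraries. For genes found in several libraries only 13.0% to 30.3% of values were whole multiples of it. Bdh2 was thus near 1 read or none by this estimate, and no fold is given. In blastocysts it was 32.5 and 27.8 in KD, against 2.42 and 12.3 in NC. Both KD libraries were above both NC libraries, and the NC libraries stood far from each other at a level of few reads. The ratio of means was 4.08 and the log2 difference 2.20, which was 1.22 without NC replicate 1 and 3.18 without NC replicate 2. Bdh2 reached the minimum mean of 10 in blastocysts only through the KD libraries, and in morulae the other 3 genes were tested.

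**Figure D1:**
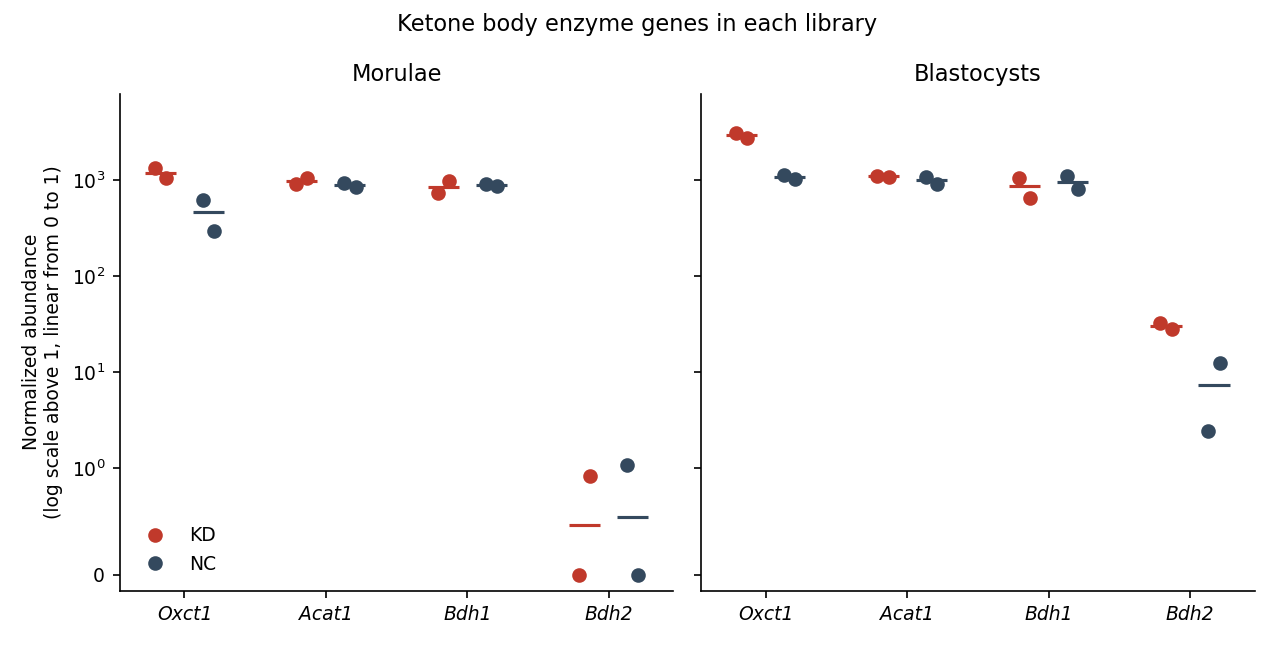
Normalized abundance of the 4 ketone body enzyme genes in each library of KD (red) and NC (dark blue), morulae on the left and blastocysts on the right, on an axis that is linear from 0 to 1 and logarithmic above; short lines are group means. Oxct1 has KD above NC at both stages (1328 and 1052 against 625 and 299 in morulae), Acat1 and Bdh1 overlap, and Bdh2 is near 0 in morulae.

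Levels of different genes were set side by side per kilobase of the longest annotated coding transcript, 3527 bases for Oxct1, 3405 for Acat1, 3122 for Bdh1 and 1172 for Bdh2. In KD morulae Oxct1 was at 337 ± 55.5 per kilobase, Acat1 at 287 ± 26.4 and Bdh1 at 274 ± 58.2 (SD, n = 2 each), which do not differ beyond their spread. In NC morulae the order was Bdh1 at 285 ± 10.7, Acat1 at 261 ± 18.98 and Oxct1 at 131 ± 65.4 per kilobase, with both Oxct1 libraries below the others. In KD blastocysts Oxct1 led at 829 ± 67.5 per kilobase, against 321 ± 9.64 for Acat1, 276 ± 91.5 for Bdh1 and 25.7 ± 2.82 for Bdh2. In NC blastocysts Oxct1 at 308 ± 23.8, Bdh1 at 303 ± 66.9 and Acat1 at 295 ± 34.3 per kilobase were level within their spread, and Bdh2 stood at 6.29 ± 5.98. Oxct1 was thus level with its pathway neighbours in NC blastocysts and above each of them in both KD blastocyst libraries.

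**Figure D2:**
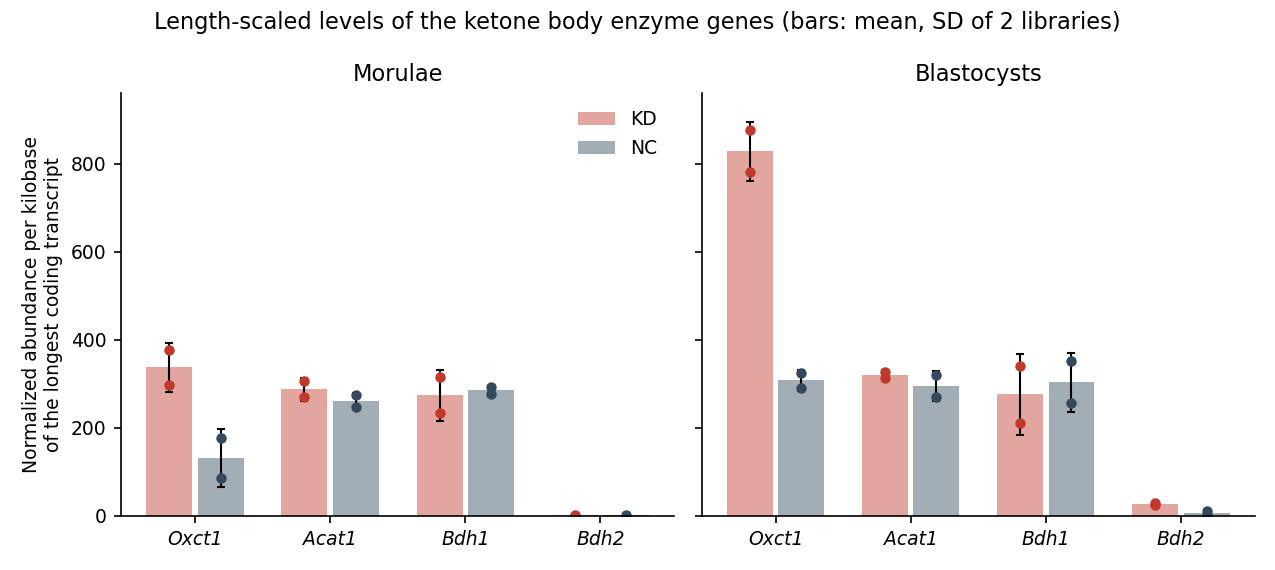
Normalized abundance per kilobase of the longest coding transcript for the 4 genes, KD (red) left of NC (dark blue), as mean bars with SD of 2 libraries and a point per library, for morulae (left) and blastocysts (right), which are scaled separately. Oxct1 reaches 829 per kilobase in KD blastocysts against 308 in NC blastocysts, where Bdh1 and Acat1 stand near 300.

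Reads of Oxct1 can be told from those of its intronless relatives Oxct2a and Oxct2b on chromosome 4, genes known for testis expression. The coding transcripts of Oxct1 shared 0 of 3526 stretches of 31 bases with either gene, and the longest run they have in common is 18 bases, from base 1614 to base 1631 of the longest Oxct1 transcript, inside the coding sequence. This run, shown as the longest stretch that the genes share, is gacctggccaactggatg. Oxct2a was 13.5 and 6.54 in KD morulae, against 2.77 and 1.03 in NC morulae, and Oxct2b was 4.81 and 10.9 in KD morulae, against 5.54 and 4.13 in NC morulae. In blastocysts Oxct2a was 14.0 and 6.27 in KD, against 1.35 and 8.10 in NC. Oxct2b was 0.876 and 6.27 in KD blastocysts, against 4.05 and 8.10 in NC blastocysts, and the groups of both genes overlapped there. Both are a small fraction of Oxct1, but they share 56.9% of the 31-base stretches of Oxct2a with each other, so their own values are uncertain. Acat1 shared 0 such stretches with Acat2 or Acat3, and Bdh1 shared 0 with Bdh2. Acat2 and Acat3 shared 45.1% of those of Acat2, so these are uncertain as well.

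Other genes of ketone body metabolism were a list of 13. Slc16a7 and Hcar2 were not analysed here. Hmgcll1, Oxct2a and Oxct2b were below the minimum mean of 10 at both stages, and 8 genes were tested at each stage. None passed at either stage (limma; unadjusted p under 0.05 for 1 gene in morulae and 2 in blastocysts, where 10.4% and 17.6% of all genes had one). The share of all genes that passed was 0.00746% in morulae and 0.0879% in blastocysts. The median log2 difference was 0.09 in morulae, against -0.01 over all tested genes, and 0.17 in blastocysts, against 0.00 over all tested genes. In morulae both KD libraries were above both NC libraries for 3 of 8 genes and below for 1, where the shares over all genes were 20.7% and 21.2%. In blastocysts they were above for 4 of 8 and below for 1, where the shares over all genes were 24.6% and 24.9%.

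Aacs, a cytosolic synthetase that activates acetoacetate for lipid synthesis, was 3449 and 3154 in KD morulae, against 2716 and 2839 in NC morulae (log2 difference 0.25, limma adjusted p = 0.555). In blastocysts it was 2537 and 1386 in KD, against 1356 and 1206 in NC (log2 difference 0.55, limma adjusted p = 0.338), and KD replicate 1 was far above the other 3 libraries. Acat2, the cytosolic thiolase of sterol synthesis, was 1595 and 768 in KD morulae, against 1082 and 545 in NC morulae, and 1605 and 1855 in KD blastocysts, against 1455 and 1571 in NC blastocysts, so the groups overlapped only in morulae. Acat3 did not exceed 27.5 in any library.

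Ketone bodies cross membranes through monocarboxylate transporters. Slc16a1, the widely expressed one, was 1706 and 2314 in KD morulae, against 2380 and 1746 in NC morulae, and 2558 and 2442 in KD blastocysts, against 2992 and 2404 in NC blastocysts. Its partner Bsg, the chaperone basigin, was 11130 and 10219 in KD blastocysts, against 9178 and 8332 in NC blastocysts (log2 difference 0.29, limma adjusted p = 0.188), and its log2 difference in morulae was 0.17. Slc16a3, known for lactate export, was 8.37 and 10.03 in KD morulae, against 18.6 and 32.7 in NC morulae, and 34.2 and 52.3 in KD blastocysts, against 11.4 and 9.06 in NC blastocysts. Its KD libraries thus lay below NC in morulae and above NC in blastocysts (log2 differences -1.34 and 1.96, limma adjusted p = 0.561 and 0.157). Slc16a6, whose role in ketone export is known from zebrafish, had log2 differences of -0.33 and -0.04.

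Ffar3, a receptor for short-chain fatty acids that also responds to ketone bodies, was 282 and 289 in KD morulae, against 191 and 126 in NC morulae. Both KD libraries were above both NC libraries (log2 difference 0.88, SE 0.29, limma adjusted p = 0.423), and in blastocysts the groups overlapped (log2 difference 0.15).

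**Figure D3:**
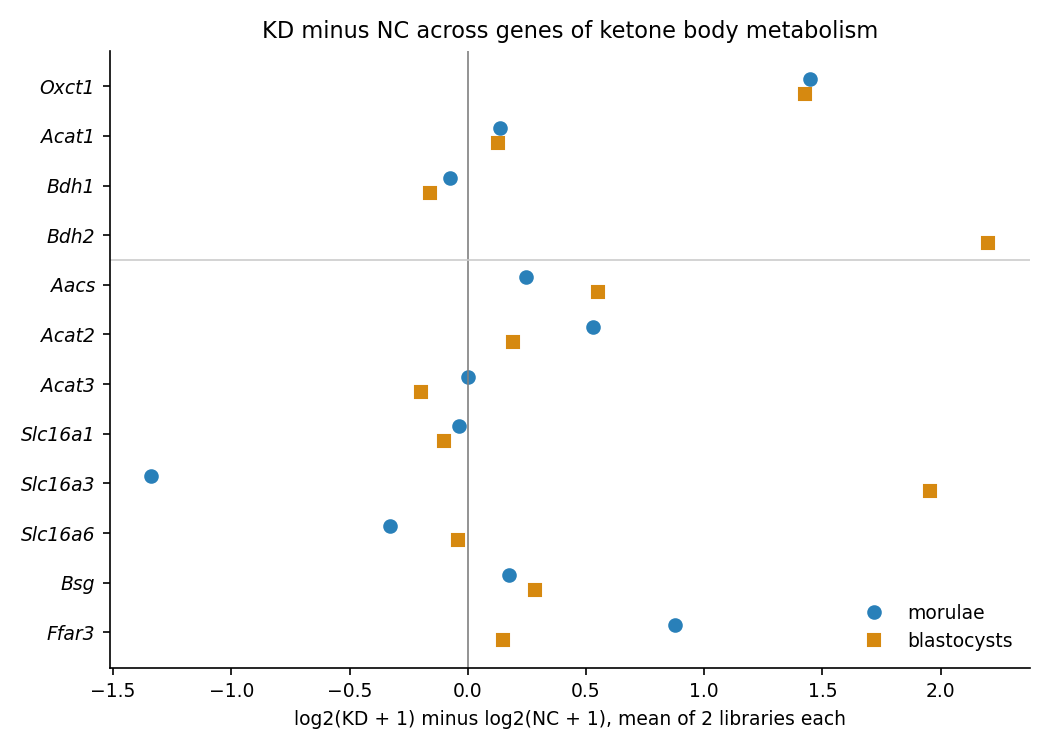
KD minus NC on the log2(value + 1) scale for the tested genes of ketone body metabolism in morulae (circles) and blastocysts (squares), with the 4 enzyme genes above the grey line. Oxct1 sits at 1.45 and 1.43, Acat1 and Bdh1 near 0, and Slc16a3 at -1.34 and 1.96; Bdh2 was below the minimum mean in morulae.

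The pathways that feed and receive the acetyl-CoA of ketone bodies were described as lists. Of 20 tested genes of mitochondrial fatty acid oxidation none passed at either stage (limma; unadjusted p under 0.05 for 4 in morulae and 3 in blastocysts, against 10.4% and 17.6% of all genes), and the median log2 differences were -0.06 and 0.07. Acaa2, the thiolase of that pathway, was 1284 and 1743 in KD morulae, against 2139 and 2472 in NC morulae, and 2835 and 2605 in KD blastocysts, against 4163 and 4069 in NC blastocysts (log2 differences -0.62 and -0.60, limma adjusted p = 0.402 and 0.0747). Its KD libraries were below its NC libraries at both stages. Hadhb, the beta subunit of the trifunctional protein, was lower in both KD blastocyst libraries (log2 difference -0.36, limma adjusted p = 0.185). Cpt1c, a brain-type member of the carnitine palmitoyltransferase family, was 174 and 149 in KD morulae, against 45.1 and 89.1 in NC morulae (log2 difference 1.33, limma adjusted p = 0.403), and 161 and 157 in KD blastocysts, against 57.2 and 99.8 in NC blastocysts (1.07, limma adjusted p = 0.197). Acads, the short-chain acyl-CoA dehydrogenase, had a log2 difference of 0.27 in blastocysts (limma adjusted p = 0.301), and the carnitine carrier gene Slc25a20 one of -0.62 in morulae (limma adjusted p = 0.386). Hadh, the dehydrogenase for shorter acyl chains, had a log2 difference of -0.36 in morulae (limma adjusted p = 0.474).

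The citric acid cycle supplies the succinyl-CoA that OXCT1 uses. Of 22 tested genes of pyruvate dehydrogenase and the cycle none passed at either stage (limma; unadjusted p under 0.05 for 4 in morulae and 5 in blastocysts, against 10.4% and 17.6% of all genes), and the median log2 differences were 0.01 and -0.07. Both KD libraries were below both NC libraries for 3 of the 22 in morulae and 11 in blastocysts, where the shares over all genes were 21.2% and 24.9%. They were above for 6 in morulae and 3 in blastocysts, where the shares over all genes were 20.7% and 24.6%. Sucla2, a subunit of the ligase that consumes succinyl-CoA, was 2240 and 2636 in KD morulae, against 4056 and 3472 in NC morulae, and 3921 and 3384 in KD blastocysts, against 4761 and 4273 in NC blastocysts (log2 differences -0.63 and -0.31, limma adjusted p = 0.362 and 0.229). Idh2, the NADP-dependent mitochondrial isocitrate dehydrogenase, was 3718 and 4291 in KD morulae, against 2904 and 3212 in NC morulae, and 5439 and 4486 in KD blastocysts, against 3827 and 3281 in NC blastocysts (0.39 and 0.48, limma adjusted p = 0.429 and 0.147). Fh1, the fumarase, and Sdha, the flavoprotein of succinate dehydrogenase, were lower in both KD blastocyst libraries (log2 differences -0.27 and -0.23, limma adjusted p = 0.242 and 0.250). In morulae Dlat, a pyruvate dehydrogenase subunit, and Sdhd, a membrane anchor of succinate dehydrogenase, were higher in both KD libraries (0.63 and 0.61, limma adjusted p = 0.399 and 0.453).

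Of 18 tested genes of branched-chain amino acid degradation, the route that Acat1 also serves, none passed (limma; unadjusted p under 0.05 for 1 in morulae and 2 in blastocysts, against 10.4% and 17.6% of all genes), with medians of 0.02 and -0.09. Bcat1, the cytosolic transaminase, was 7715 and 7319 in KD blastocysts, against 5491 and 5924 in NC blastocysts (log2 difference 0.40, limma adjusted p = 0.112). Of 9 tested genes of acetyl-CoA handling none passed (limma; unadjusted p under 0.05 for 1 in morulae and 4 in blastocysts, against 10.4% and 17.6% of all genes), with medians of 0.18 and -0.27. Acly, which makes cytosolic acetyl-CoA from citrate, was 9249 and 9002 in KD blastocysts, against 7050 and 6063 in NC blastocysts (0.48, limma adjusted p = 0.103). Fasn, the fatty acid synthase, was 3013 and 2658 in KD blastocysts, against 4605 and 3616 in NC blastocysts (-0.53, limma adjusted p = 0.144). Acss1, the mitochondrial acetate-activating enzyme, was 79.2 and 53.2 in KD morulae, against 155 and 139 in NC morulae, and 296 and 388 in KD blastocysts, against 466 and 685 in NC blastocysts (-1.17 and -0.74, limma adjusted p = 0.402 and 0.199).

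Regulators of fuel use were a list of 9, of which 5 were tested at each stage. Ppara and Ppargc1a, known to drive ketogenic genes in liver, did not exceed 9.93 and 5.71 in any library. Of 5 tested regulators none passed (limma; unadjusted p under 0.05 for 0 in morulae and 1 in blastocysts, against 10.4% and 17.6% of all genes). All 5 had negative log2 differences in blastocysts, where 50.3% of all genes had a positive one. The smallest of the 5 was -0.007, with overlapping groups. The median was -0.31 in blastocysts, against 0.00 over all tested genes, and -0.13 in morulae, against -0.01 over all tested genes. Sirt3, the mitochondrial deacetylase, was 102 and 164 in KD blastocysts, against 325 and 204 in NC blastocysts (log2 difference -0.99, limma adjusted p = 0.216). Of 10 tested genes of iron handling, taken for the link of Bdh2 to iron, none passed (limma; unadjusted p under 0.05 for 0 in morulae and 3 in blastocysts, against 10.4% and 17.6% of all genes), with medians of 0.14 and 0.16. In blastocysts 6 of these 10 had positive log2 differences and 4 negative ones. Slc11a2 was 3554 and 2644 in KD blastocysts, against 2257 and 1702 in NC blastocysts (0.65, limma adjusted p = 0.168). The ferritin heavy chain gene Fth1 was 7326 and 6948 in KD blastocysts, against 6297 and 5286 in NC blastocysts (0.31, limma adjusted p = 0.219). The transferrin receptor gene Tfrc was 843 and 735 in KD blastocysts, against 953 and 1047 in NC blastocysts (-0.34, limma adjusted p = 0.271).

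**Figure D4:**
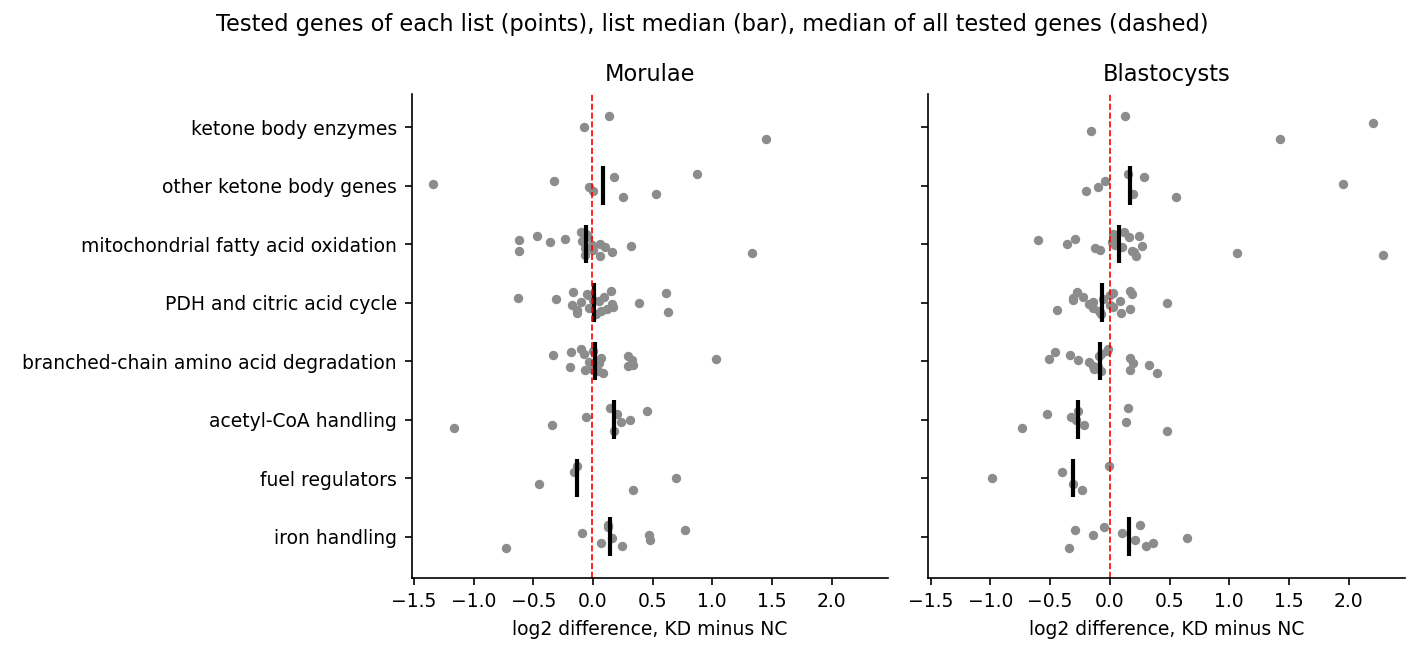
KD minus NC on the log2(value + 1) scale for each tested gene (points) of the 4 enzyme genes and 7 further lists, with the list median (black bar, not drawn for the enzyme genes) and the median of all tested genes (dashed), in morulae (left) and blastocysts (right). List medians lie between -0.31 and 0.18. Oxct1 is at 1.45 in morulae and at 1.43 in blastocysts, the difference through which it was chosen. Single genes of other lists lie further right in blastocysts, such as Slc16a3 at 1.96.

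The genes whose profile across the 8 libraries was most like that of a member were ranked by Pearson's r of log2 values centred within each table, over 12874 genes. All values come from the same libraries, and the profile of Oxct1 includes the difference through which it was chosen, so r is a description. For Oxct1 they were Ddc, an aromatic amino acid decarboxylase (r = 0.995), Efnb1, an ephrin ligand (0.989), the endosomal Rab gene Rab4b (0.980), Cacfd1 (0.979) and the glypican gene Gpc1 (0.979). Ddc was 268 and 222 in KD morulae, against 127 and 74.2 in NC morulae, and 573 and 473 in KD blastocysts, against 238 and 193 in NC blastocysts. Like Oxct1, for likeness to which they were picked, all 5 had both KD libraries above both NC libraries at both stages. The shares over all tested genes were 20.7% in morulae and 24.6% in blastocysts. The profile of Oxct1 had r = 0.67 with Acat1 and r = -0.18 with Bdh1. For Acat1 the most similar were Eps8l1 (0.963), Ivd, which encodes isovaleryl-CoA dehydrogenase of leucine breakdown (0.953), Pak1ip1 (0.949), P2ry2 (0.943) and Gins4 (0.943). For Bdh1 they were Kank2 (0.979), Hcn2 (0.976), Mboat2 (0.965), Patl2 (0.961) and Odc1 (0.958), with overlapping KD and NC libraries for all 5 at both stages.

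**Figure D5:**
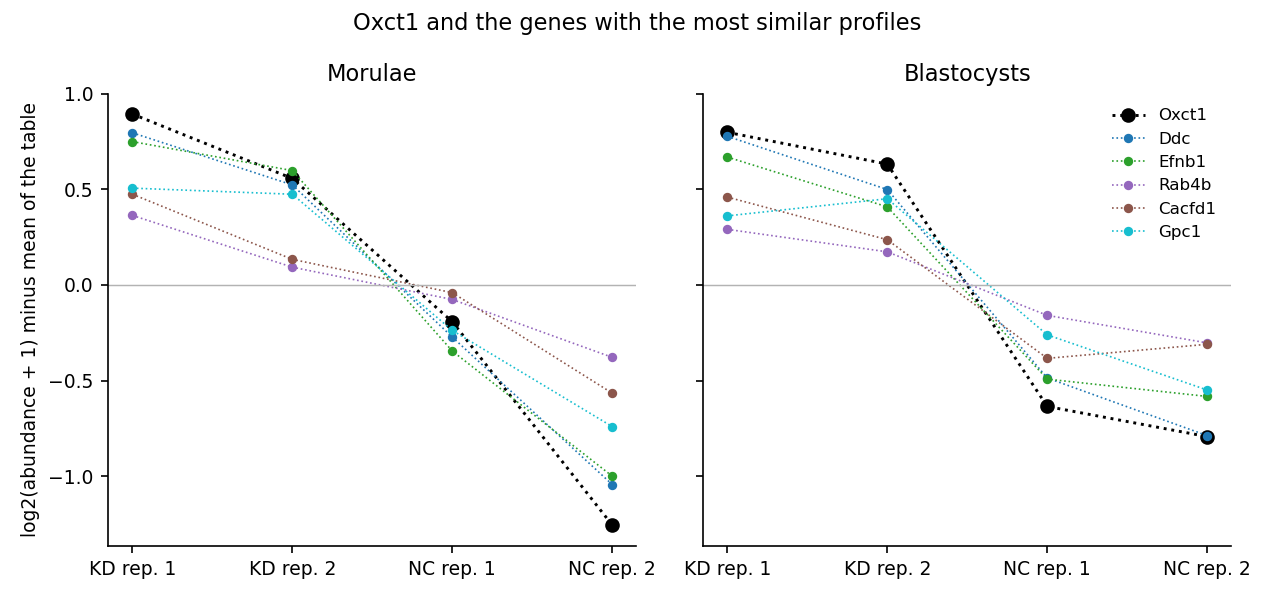
Profiles of Oxct1 (black) and the 5 genes with the highest Pearson's r to it, as log2(abundance + 1) minus the gene's mean in the table of the stage, for each library; dotted lines only join the points of a gene. Oxct1 and the 5 genes picked for likeness to it have both KD libraries above both NC libraries in morulae and in blastocysts. Oxct1 spans the widest range in morulae.

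The nearest tested protein-coding gene beside Oxct1, AW549877 at 30.6 kilobases, was 658 and 648 in KD morulae, against 693 and 487 in NC morulae (log2 difference 0.17, limma adjusted p = 0.841). In blastocysts it was 988 and 1062 in KD, against 808 and 809 in NC (0.34, limma adjusted p = 0.233). On the other side C6, at 572 kilobases, did not exceed 21.1 in any library. Npat, 6.18 kilobases from Acat1, was lower in both KD libraries at both stages (log2 differences -0.46 and -0.32, limma adjusted p = 0.545 and 0.333), and Cul5, 4.20 kilobases away, overlapped between groups. Slc9b1, 43.6 kilobases from Bdh2, was also lower in both KD libraries at both stages (-1.48 and -0.26, limma adjusted p = 0.386 and 0.672). Over all tested genes this held for 21.2% in morulae and 24.9% in blastocysts. Cenpe beside Bdh2, and Ppp1r2 and Dlg1 beside Bdh1, overlapped between groups.

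None of the tested cell type markers passed at either stage (limma, adjusted p under 0.05), and their log2 differences are a description. Over all tested genes, both KD libraries were above both NC libraries for 20.7% in morulae and 24.6% in blastocysts. They were below for 21.2% and 24.9%, and the log2 difference was positive for 49.2% and 50.3%. In bulk pools, more cells of a type and more RNA per cell cannot be told apart. Of 4 tested primitive endoderm markers all had positive log2 differences in morulae, with a median of 1.28, and 3 of them (Pdgfra at 1.14, Gata4 at 1.41 and Sox17 at 4.83) had both KD libraries above both NC libraries. Their summed level, most of it Gata6, was 12488 and 10949 in KD morulae, against 9503 and 10481 in NC morulae. In blastocysts 3 of 5 were positive and 2 negative, with a median of 0.12. Of 6 trophectoderm markers 2 had positive and 4 negative log2 differences in morulae, and the keratin genes Krt8 and Krt18 were lower in both KD libraries (-0.36 and -0.43). All 6 trophectoderm markers had positive log2 differences in blastocysts, with a summed level of 98879 and 113063 in KD, against 87941 and 88166 in NC, and 6 of 7 epiblast and pluripotency markers had negative ones (35383 and 37580 in KD, against 39115 and 43421 in NC). Of 9 cumulus, granulosa and stromal markers 4 were tested at each stage. All 4 had positive log2 differences in morulae, 1 of them with separate groups, and in blastocysts 2 were positive, both with separate groups, and 2 negative. The summed level was 345 and 302 in KD morulae, against 109 and 258 in NC morulae, and 369 and 778 in KD blastocysts, against 199 and 409 in NC blastocysts. Foxl2, a granulosa cell factor, was 109 and 77.1 in KD morulae, against 38.9 and 28.9 in NC morulae, and 63.9 and 42.6 in KD blastocysts, against 16.3 and 25.1 in NC blastocysts and was the marker of this list with both KD libraries above both NC libraries at both stages. Inhbb and Col1a1 overlapped between groups at both stages, with log2 differences of -0.06 and -0.76 in blastocysts. The granulosa genes Cyp19a1 and Fshr were not analysed here. Blood cell markers summed to at most 18.1 in any morula library and to at most 144 in any blastocyst library, in an NC library. Of 5 oviduct and uterine epithelium markers 2 were tested at each stage. Their summed level was 89.9 and 86.1 in KD morulae, against 93.1 and 68.8 in NC morulae. In blastocysts it was 664 and 769 in KD, against 668 and 707 in NC. The part of these markers in the Oxct1 and Bdh2 differences was not tested.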

How the data were processed

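The deposited tables hold a normalized signal per gene, scaled by the authors for each stage separately. The submitters' processing notes name Salmon 0.14.1, DESeq2 and mm10, without the role of each. Low values gave a step for 1 read and from it the estimated depth: for genes found in a single library 95.0% to 100% of values were whole multiples of the step (tolerance 0.01), but for genes found in several libraries 11.4% to 30.3% were. A count model was therefore not used. Errors are the SD over 2 libraries.

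Groups came from sample titles. Symbols came from the gene name table, which matched 98.9% of IDs in each table, and sequences from RefSeq (GRCm38.p6) and GENCODE vM21. Genes with a mean of at least 10 over the 4 libraries of a stage were tested by limma 3.58.1 (R 4.3.3; eBayes with trend, Benjamini-Hochberg adjustment, threshold 0.05) on log2(value + 1), KD minus NC, a scale that understates changes of low genes. The same code was run on simulated data with independent noise between libraries, which cannot tell whether the p-values hold for these pools. A permutation test of 2 libraries against 2 gives p = 0.333 at the least, so none is given. The 12 alternatives were other pseudocounts, filters and scalings, no trend, a replicate block and each library left out.

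The members and gene lists were chosen with earlier results of these data known. Named genes were Smarca5, all members, the other ketone body genes, genes among the 4 with the smallest p for each other list and stage, and the 5 most like each member. Neighbouring genes and cell type markers were named outside this rule. Of the list of other ketone body genes, 2 genes are not reported here and are left out of its counts and figures.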

Additional observations from a re-analysis of the deposited data

Results flagged for a closer look

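The stages were compared for the members and the genes named from the 7 further lists, without Smarca5 and the genes picked for likeness. Of these genes 46 were tested at both stages. For 7 of the 46, both KD libraries were on one side of both NC libraries in morulae and on the other side in blastocysts. This share was 15.2%, against 557 of all 12875 genes tested at both stages, 4.33%. Many of the named genes were picked for a small p at one stage, so these shares are not alike in how the genes were chosen. The difference between the stages was not tested for any of them, and the stages are scaled separately. Slc16a3, a monocarboxylate transporter gene, had log2 differences of -1.34 in morulae and 1.96 in blastocysts. Its level was low, at 8.37 to 32.7 in morulae and 9.06 to 52.3 in blastocysts. In morulae its KD mean was 9.20, so it reached the minimum mean of 10 only through the NC libraries. Slc25a20, the carnitine carrier gene of fatty acid oxidation, was 1604 and 1472 in KD morulae, against 2040 and 2728 in NC morulae, and 1696 and 1712 in KD blastocysts, against 1414 and 1590 in NC blastocysts (-0.62 and 0.18). Acadsb, a dehydrogenase gene of isoleucine breakdown, was 120 and 177 in KD morulae, against 89.3 and 56.2 in NC morulae, and 288 and 234 in KD blastocysts, against 322 and 423 in NC blastocysts (1.03 and -0.51). Sirt3 was 58.4 and 49.2 in KD morulae, against 43.9 and 24.4 in NC morulae, and its log2 differences were 0.69 and -0.99. Dlat, a pyruvate dehydrogenase subunit gene, had 0.63 and -0.082, the acetyl-CoA carboxylase gene Acaca 0.31 and -0.28, and the coactivator gene Ppargc1b 0.33 and -0.24.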

How the results depend on the processing

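Filters, the trend and the replicate block leave a log2 difference as it is, and the blastocyst direction of Oxct1 was part of its selection. In morulae Oxct1 was 1.43 to 1.45 with other pseudocounts and 1.45 with both other scalings. Its log2 difference was 0.92 to 1.98 in morulae and 1.35 to 1.51 in blastocysts when any 1 library was dropped. A p-value from such a fit assumes that the lone library of an arm varies like the other arm. In morulae Oxct1 passed only with the replicate block (1.45, limma adjusted p = 2.39e-04). Its limma adjusted p was 0.340 to 0.478 under the other alternatives that kept all libraries. The labels do not say that replicate numbers pair libraries; the KD and NC differences between replicates 1 and 2 had a correlation across genes of 0.30 in morulae and 0.15 in blastocysts. With the block 892 genes passed in morulae, against 1 without it, and 1208 in blastocysts, against 12. No filter gave 27 genes in blastocysts, and limma without trend gave 0 at each stage (1261 and 2020 with an unadjusted p under 0.05). Dropping any 1 library left 1 to 3 passing genes in blastocysts. Of the lists, the block gave 2 other ketone body genes higher in morulae and 1 in blastocysts, and for fatty acid oxidation 1 higher and 2 lower in morulae and 1 lower in blastocysts. For the citric acid cycle it gave 2 higher and 1 lower in morulae and 1 higher and 2 lower in blastocysts, and for acetyl-CoA handling 1 lower in morulae and 1 higher and 2 lower in blastocysts. For iron handling it gave 1 higher and 1 lower in morulae and 3 higher in blastocysts, and for branched-chain degradation 1 higher in blastocysts. With 1 library left out, Bdh1 ranged from -0.29 to 0.14 in morulae and -0.50 to 0.18 in blastocysts, and Acat1 from 0.04 to 0.23 in morulae and 0.01 to 0.25 in blastocysts. Bdh2 in blastocysts was 1.27 with a pseudocount of 10 and 2.43 with 0.1, and a minimum mean of 100 left it out.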
